A study of Mus musculus with 12 samples.

Results

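Gonadotropin stimulation was followed by opposite shifts of 33 transcripts in the 2 granulosa cell populations of the mouse ovarian follicle. Their levels were higher after stimulation in cumulus cells, which surround the oocyte, and lower in mural granulosa cells, which line the follicle wall. The 33 were chosen by their group means, out of 27365 distinct sets of values that carried mouse Ensembl transcript identifiers. The highest of the 4 group means had to reach 8 on the log2 scale, and stimulated minus unprimed had to be at least 0.4 in cumulus cells and at most -0.4 in mural cells. Of several transcripts with identical values only the first was kept, and a further row was left out by the rule. A level limit of 8 alone was met by 11793 distinct rows besides that one, so the 33 were 0.28% of them.

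The cells came from B6SJLF1 mice 22 days old. All 4 groups shared that strain and age. The unprimed groups were not given gonadotropin, and the stimulated groups were injected into the peritoneum with equine chorionic gonadotropin (eCG or PMSG), 5 IU at 44 hours before collection. Cumulus cells were stripped from 200 cumulus-oocyte complexes per sample with a fine pipette and the oocytes were discarded, while mural cells were picked as clumps of healthy appearance. Each sample came from a pool of 5 mice, with 3 arrays in each of the 4 groups and 12 arrays in all, so spread between single animals was not measured. For each array the starting 20 ng of RNA went through repeated amplification, which can alter relative levels. Cumulus samples were tied to a number of complexes and mural samples to a roughly equal mass, and in bulk RNA fewer cells of a type and less RNA per cell cannot be told apart.

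Granulosa cells of growing follicles divide into these populations as the fluid-filled antrum forms. Cumulus cells are coupled to the oocyte by gap junctions and receive oocyte-derived growth factors, whereas mural cells lie against the basement membrane and, under follicle stimulating hormone, gain luteinizing hormone receptors and steroidogenic capacity. eCG acts on rodent follicles mainly as a follicle stimulating hormone and brings them to the preovulatory stage. The comparison of stages sets the transcript levels of each population in mice without hormone beside those in other mice given it. It does not follow the same follicles over time.

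The files give transcript identifiers without gene names. Of the 41115 transcript probe sets, 0 matched the gene table used here, so the 33 carry no gene name, role or sequence in what follows. Marker lists of granulosa, oocyte, theca and other cells could not be looked up either, and the labelled cell types were not checked against markers. The 33 rows stand for 46 transcripts, since 27 rows stand for one transcript each and 6 for several whose values were identical. All 33 passed the filter on low values, which asked for a value above the 40th percentile of the array on at least 3 of the 12 arrays. They covered low to high levels, with group means from 6.59 to 12.15, while that percentile lay between 6.66 and 6.73 on the arrays. In 2 of the 33 the mean of unprimed cumulus cells was below that level, where a log2 difference is least exact.

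In cumulus cells the stimulated minus unprimed difference of the 33 ranged from 0.40 to 1.01 on the log2 scale, with a median of 0.53. As folds these rises were 1.32 to 2.01, with a median of 1.44. In mural cells the same difference ranged from -1.32 to -0.41, with a median of -0.57, which is a fall of 1.33-fold to 2.50-fold. Over all 16809 distinct rows that passed the filter the median differences were -0.01 in cumulus and -0.02 in mural cells. These values selected the 33 and are given as a description. Most of the shifts were moderate. The rise in cumulus cells reached 2-fold in 1 of the 33, and the fall in mural cells reached 2-fold in 7. The change was larger in mural than in cumulus cells in 22 of the 33.

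**Figure D1:**
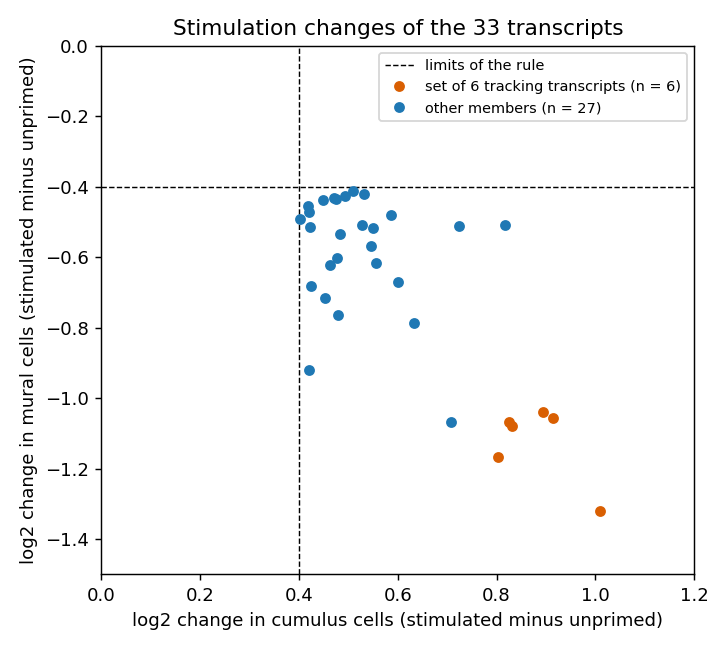
Stimulated minus unprimed log2 difference in cumulus cells (horizontal) against mural cells (vertical), one point per transcript, with the change limits of 0.4 and -0.4 drawn as lines. The set of 6 that moved together, marked by colour, had rises of 0.80 to 1.01 and falls of 1.04 to 1.32.

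The arrays of the groups were mostly separate for these transcripts. In cumulus cells all 3 stimulated arrays lay above all 3 unprimed arrays in 29 of the 33, beside 21.3% of all rows tested. In mural cells all 3 unprimed arrays lay above all 3 stimulated arrays in 30 of the 33, beside 17.0% of all rows tested. Both held in 27, a joint count for which the share of all rows was not computed. By limma, with p-values adjusted over 16809 rows, 22 of the 33 were past the threshold of 0.05 as higher in stimulated cumulus cells, beside 10.6% of rows tested. A fall in mural cells was past it in 25, beside 8.20% of rows tested. In 19 both were past it, again with no share of all rows computed. The interaction, which is the cumulus change minus the mural change, ran from 0.87 to 2.33 with a median of 1.10 and was past the threshold in 28, beside 1.82% of rows tested. The rule required these shifts, so nothing is read from those counts. A fit with the mean of bacterial control probe sets as a covariate is described with those controls further on. In it the counts were 0 for the cumulus rise, beside 0.0535% of rows tested, and 25 for the mural fall, beside 8.25%. For the interaction the count was 3, beside 0.149%, so calls of the rise and the interaction became fewer over all rows too.

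Opposite movement was uncommon beside shared movement at the same limits. Of the 11793 rows at the level limit, 553 (4.69%) were higher by 0.4 or more in both cell types after stimulation and 500 (4.24%) were lower by that much in both. The mirror pattern, a fall in cumulus cells with a rise in mural cells, was met by 28 rows (0.237%). No test was applied to these counts. The limits fall within a continuous spread of values. The 3 transcripts just inside had a smaller change of 0.403, 0.412 and 0.419, and the 3 just outside had 0.397, 0.393 and 0.391. At the level limit the nearest transcript inside had a highest group mean of 8.09 and the nearest outside 7.82.

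The transcript with the largest interaction was ENSMUST00000142512. Its log2 values were 7.31, 7.16 and 7.41 in unprimed cumulus cells and 8.06, 8.48 and 8.37 in stimulated cumulus cells. In mural cells they were 10.48, 9.62 and 9.91 before stimulation and 8.35, 8.29 and 9.41 after it. The groups did not overlap within either cell type, but stimulated mural array 3 was close to the lowest unprimed mural array. It changed by 1.01 in cumulus cells and by -1.32 in mural cells. The cumulus minus mural gap went from -2.71 in unprimed to -0.38 in stimulated mice.

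ENSMUST00000031775 had the next largest interaction. It read 7.15, 6.99 and 7.21 in unprimed cumulus cells and 7.67, 8.18 and 7.92 in stimulated cumulus cells. Its mural values were 9.997, 9.18 and 9.31 in unprimed mice and 8.08, 7.91 and 8.99 in stimulated mice. Stimulated mural array 3 was again the highest of its group and unprimed mural array 1 the highest of its own. Stimulation shifted it by 0.80 in cumulus cells and by -1.17 in mural cells.

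**Figure D2:**
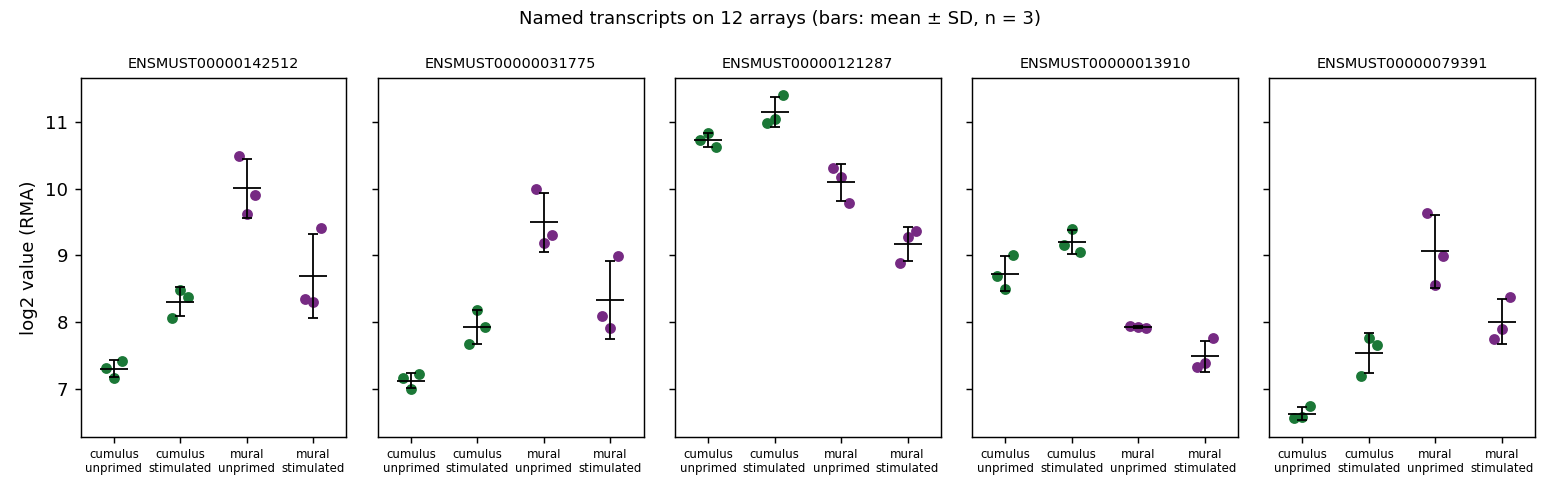
Log2 value on each of the 12 arrays for the 5 transcripts chosen by interaction or by average difference, with points for arrays and bars for the group mean ± SD (n = 3). For ENSMUST00000142512, ENSMUST00000031775 and ENSMUST00000079391 the unprimed mural arrays stand highest, while for ENSMUST00000121287 and ENSMUST00000013910 every cumulus array lies above every mural array.

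Both transcripts belong to a set of 6 whose values ran together over the 12 arrays. Within the set the lowest Pearson correlation between any pair was 0.984, and 0.882 for deviations from the group means, which leave the group differences out. A limit of 0.98 for such sets was chosen after the values were seen. The 6 rows stand for 9 transcripts. Their group means were 6.59 to 7.30 in unprimed and 7.48 to 8.30 in stimulated cumulus cells, against 8.98 to 10.003 in unprimed and 7.94 to 8.68 in stimulated mural cells. All 6 therefore had less in cumulus than in mural cells, with a gap (cumulus minus mural) of -2.71 to -2.34 before stimulation and -0.47 to -0.38 after it. The lowest unprimed cumulus means of the set lay 0.12 and 0.09 below the filter level and 0.03 and 0.06 above it. Their rises and unprimed gaps therefore start from values where a log2 difference is least exact. Outside the 33, 0 of 16775 tested rows had a correlation of 0.98 or more with the set's median profile, and the highest was 0.953. Whether the 6 rows measure the same gene was not tested, since no gene names or probe sequences were used here.

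The set of 6 also varied widely between mural arrays. Its SD (n = 3 arrays) was 0.44 to 0.55 in unprimed and 0.33 to 0.63 in stimulated mural cells, where the other 27 had medians of 0.19 and 0.21. Unprimed mural array 1 and stimulated mural array 3 carried high values. Without the former the mural change of the 6 was -1.08 to -0.74, and without the latter it was -1.68 to -1.22.

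A further 8 of the 33 formed 4 pairs at the same limit, and 19 stood alone. One pair was above mural cells in unprimed cumulus cells by 0.49 and 0.57, and by 1.37 and 1.81 after stimulation. Another, in which one row stands for 7 transcripts, started lower in cumulus cells, at gaps of -1.36 and -1.46, and ended at -0.43 and -0.35. The remaining pairs began nearly level, at gaps of -0.10 and -0.08 in the one and 0.04 and 0.09 in the other, and ended 0.96 to 1.07 higher in cumulus cells. Counting each set or pair once leaves 24 profiles at this limit. Some transcripts that stood alone ran nearly as closely, with correlations such as 0.970 and 0.967, so the 24 are not independent of each other.

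**Figure D3:**
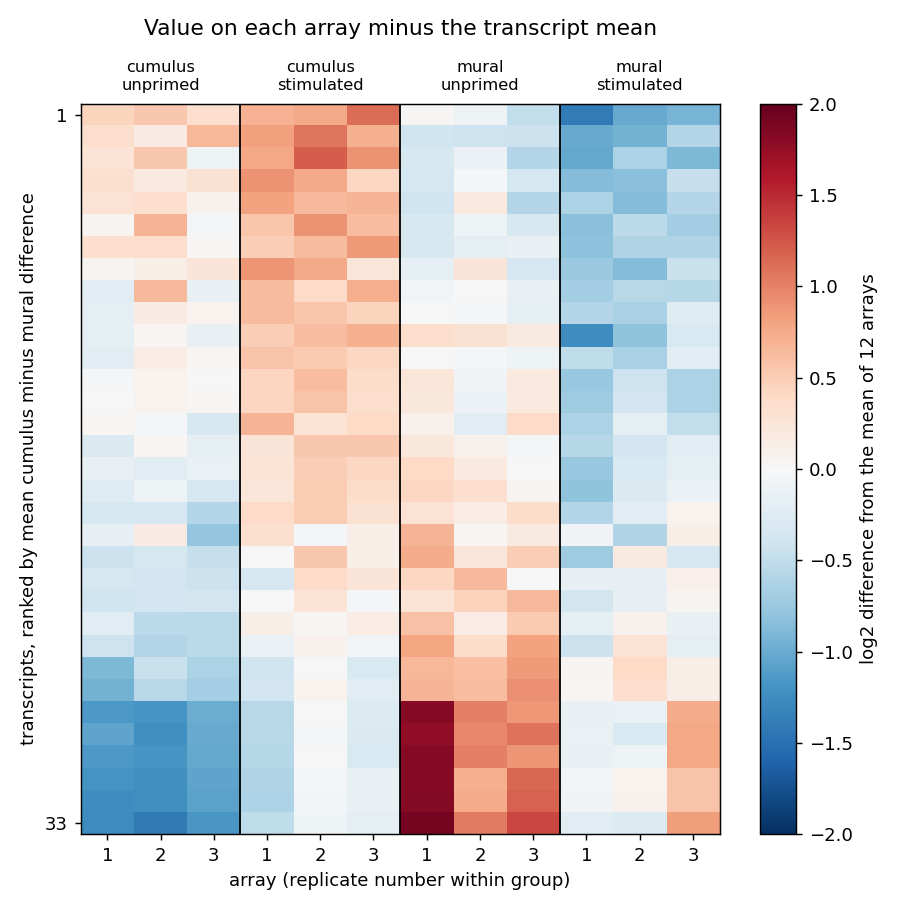
Log2 value of each of the 33 transcripts on each of the 12 arrays, as a deviation from that transcript's mean, with arrays in columns by group and transcripts in rows. In the set of 6, unprimed mural array 1 and stimulated mural array 3 stand out within their groups.

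The cell type with the higher group mean was a different one after stimulation in 14 of the 33. Before stimulation the cumulus group mean was below the mural one in 22 of the 33 and above it in 11, with a median gap (cumulus minus mural) of -0.38 and a range of -2.71 to 0.80. After stimulation it was above in 25 and below in 8, with a median gap of 0.81 and a range of -0.47 to 1.97. The cumulus mean went from below to above in those 14, was above at both stages in 11 and below at both in 8. The size of the gap was smaller after stimulation in 15 and larger in 18.

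By single arrays, all 3 unprimed mural arrays lay above all 3 unprimed cumulus arrays in 17 of the 33, beside 17.8% of rows tested, and the reverse held in 6, beside 24.4%. In stimulated mice all 3 cumulus arrays lay above all 3 mural arrays in 19, beside 29.9% of rows tested, and mural arrays lay above in 1, beside 21.4%. The gaps at single stages share values with the rule and were not tested.

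Read across the stages, the orders fell into several groups. The share of all rows in each combined order was not computed, and the rule requires every gap to rise. The counts are therefore given as a description only. In 6 transcripts cumulus arrays were above mural arrays at both stages, and the median gap went from 0.55 to 1.56. In 9 the cell types overlapped in unprimed mice, with a median gap of 0.04, and cumulus arrays were above after stimulation, with a median gap of 1.04. In 4 the order was reversed without overlap at either stage, from a median of -0.44 to one of 0.79. The largest group held 12 transcripts, among them the set of 6, in which mural arrays were above before stimulation, at a median gap of -1.90, and the cell types overlapped after it, at -0.36. In the 6 of these outside the set the gap was -1.46 to -0.74 before and -0.35 to 0.51 after stimulation, with the cumulus mean above the mural one afterwards in 5. Of the 2 left, one was below in cumulus cells at both stages, at -1.36 and -0.43, and one overlapped at both, at -0.56 and 0.33.

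**Figure D4:**
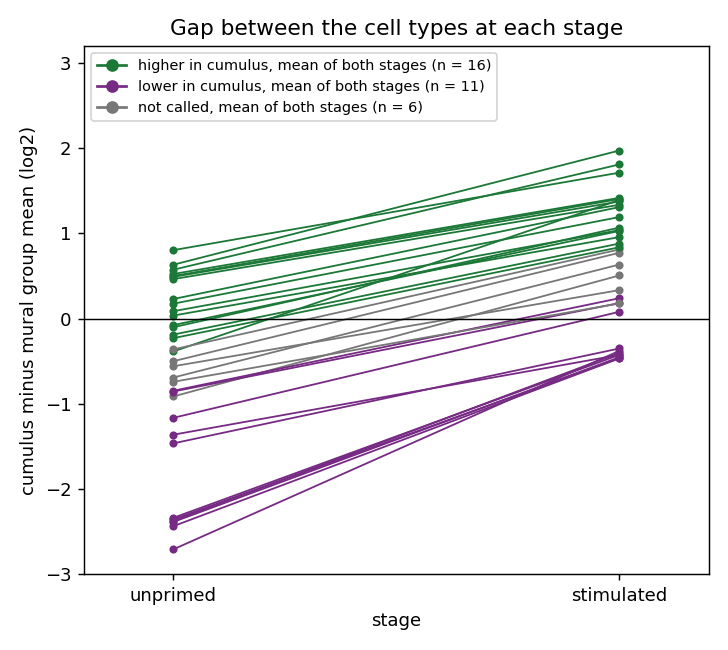
Cumulus minus mural log2 gap of each of the 33 transcripts in unprimed and in stimulated mice, with a line joining the stages for each transcript and colour for the call on the average over both stages. Every line rises, as the rule requires, from a median of -0.38 to a median of 0.81, and the set of 6 starts lowest.

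The change limits of the rule did not use the level of a transcript in cumulus relative to mural cells, averaged over both stages. In this design with equal groups that average shares no contrast with the stimulated minus unprimed differences. It was tested with limma over all 16809 rows. The level limit is not independent of it, since a row could meet that limit through a single cell type. ENSMUST00000069011 met it only in unprimed mural cells, at 8.09, and ENSMUST00000026449 only in stimulated cumulus cells, at 8.39. The set of 6, apart from ENSMUST00000142512, also met it only in mural cells, and these transcripts are among the lower calls. ENSMUST00000013910, ENSMUST00000023448 and ENSMUST00000008280 met it only in cumulus cells and are among the higher calls. The calls below are therefore not fully independent of the rule. Cumulus cells were higher in 16 of the 33, or 48.5%, beside 28.0% of all rows tested, and lower in 11, or 33.3%, beside 21.1%. Among the 11760 rows at the same level limit outside the 33, 32.7% were higher and 22.3% lower. The differences of the 16 were 0.30 to 1.30 with a median of 0.73, at adjusted p of 2.4e-06 to 0.029. Those of the 11 were -1.54 to -0.30 with a median of -1.38, at adjusted p of 2.2e-05 to 0.015. The other 6 lay between -0.28 and 0.23 with adjusted p of 0.080 to 0.84.

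The median over the 33 was 0.23, beside 0.04 over all rows tested, and the median size regardless of sign was 0.68, beside 0.23. The set of 6 made up 6 of the 11 lower calls. With each set and pair counted once, 13 of the 24 profiles were higher in cumulus cells, beside 28.0% of all rows tested. Only 5 of the 24 were lower, which is near the 21.1% of all rows, and 6 were not past the threshold. No excess of lower calls is therefore read from this count. The other rows were not grouped into sets, so the shares are not fully alike. In the 28 transcripts with the mirror pattern the same limma test called 26 lower in cumulus cells and 0 higher. None of those 28 (0) was higher at an unadjusted p below 0.05 either, and their median was -1.12. Whether the lists differ was not tested.

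The transcripts with the highest average in cumulus relative to mural cells were ENSMUST00000121287 and ENSMUST00000013910. ENSMUST00000121287 read 10.73, 10.83 and 10.62 in unprimed and 10.99, 11.04 and 11.41 in stimulated cumulus cells, against 10.31, 10.18 and 9.79 in unprimed and 8.88, 9.28 and 9.36 in stimulated mural cells. Each cumulus array was above each mural array, and the shift was mainly in mural cells, with a change of -0.92 there and 0.42 in cumulus cells. Its average difference was 1.30 ± 0.12 (SE, 3 arrays in each of the 4 groups), with an adjusted p of 4.2e-06 by limma.

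ENSMUST00000013910 was measured at 8.69, 8.49 and 8.999 in unprimed and 9.16, 9.40 and 9.04 in stimulated cumulus cells. Mural cells gave 7.94, 7.92 and 7.91 without and 7.32, 7.39 and 7.75 with stimulation. Here too no mural array reached a cumulus array, and the changes were of similar size, 0.47 in cumulus and -0.43 in mural cells. The average difference was 1.26 ± 0.10 (SE), with an adjusted p of 2.4e-06 by limma. ENSMUST00000013910 met the level limit of 8 only in cumulus cells, so this call is not fully independent of the rule.

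At the other end stood ENSMUST00000142512, with an average difference of -1.54 ± 0.19 (SE) and an adjusted p of 5.2e-05 by limma, and ENSMUST00000079391, also of the set of 6. The latter read 6.56, 6.57 and 6.74 in unprimed and 7.20, 7.76 and 7.66 in stimulated cumulus cells, with 9.64, 8.55 and 8.98 in unprimed and 7.74, 7.90 and 8.38 in stimulated mural cells. These values stand for 3 transcripts, and those of unprimed cumulus cells lie near the filter level. The level limit of 8 was met only in mural cells, so the call on this transcript is not fully independent of the rule. Stimulated cumulus array 2 overlapped the lowest stimulated mural array. Its average difference was -1.45 ± 0.17 (SE) with an adjusted p of 3.6e-05 by limma, and with the covariate described next it was -1.11 with an adjusted p of 0.056.

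**Figure D5:**
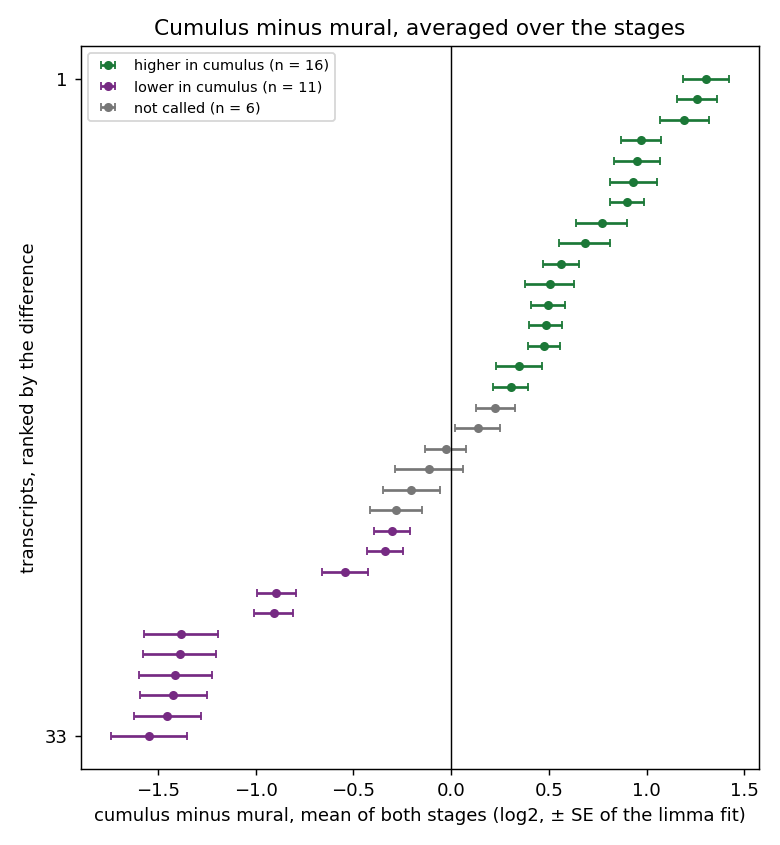
Cumulus minus mural log2 difference averaged over both stages for each of the 33 transcripts, with standard errors from limma and colour for the call at an adjusted p of 0.05. The 16 higher calls reach 1.30 and the 11 lower calls reach -1.54, with 6 not called in between.

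One technical measure moved with stimulation in cumulus cells. The 24 control probe sets for the bacterial dap, lys, phe and thr transcripts, which can be added to RNA before amplification, had array means of 7.59 to 7.80 in unprimed and 8.43 to 8.79 in stimulated cumulus cells. In mural cells the means were 7.23 to 7.84 and 7.57 to 7.75. The difference between 3′ and 5′ probe sets of the Gapdh and actin controls, a measure of RNA length, was 1.38, 1.36 and 1.60 in unprimed and 1.15, 1.44 and 1.17 in stimulated mural cells. In cumulus cells it was 1.48, 1.25 and 1.37 before and 1.36, 1.38 and 1.12 after stimulation. Stages overlapped in both cell types, with a lower value on 2 of the 3 stimulated mural arrays than on any unprimed one, and the part of this measure in the mural fall was not tested. With the mean of the 24 controls as a covariate the fall in mural cells kept its sign in all 33 and the rise in cumulus cells in 29 of the 33, and the interaction was positive in all 33. Between the mural stages the controls differed by a median of only 0.15, so the covariate could move the mural change little. The fit is therefore a weak check of the mural fall. The cumulus changes in this fit ranged from -0.47 to 1.42 with a median of 0.64, against 0.53 without the covariate. Their standard errors were 2.20 times as large at the median. The median interaction was 1.25, against 1.10 without the covariate. In cumulus cells the control means of the stages did not overlap, so the controls and stimulation can hardly be told apart there. By limma the rise in cumulus cells then passed the adjusted threshold in 0 of the 33, against 22 without the covariate, and 9 had an unadjusted p below 0.05 (0.0535% of all rows tested were called). The interaction passed in 3, against 28 without it, beside 0.149% of rows tested, and the mural fall in 25, as without it, beside 8.25%. For the average difference between cell types the higher calls went from 16 to 7, while the share of all rows tested went from 28.0% to 6.73%. The lower calls went from 11 to 6, and that share from 21.1% to 8.78%.

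With each of the 12 arrays left out in turn, the limits of the rule were met by 25 to 33 of the 33 per run, and 14 met them in every run. These runs use the arrays that selected the 33, so they show only how many depend on a single array for their place in the list.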

How the data were processed

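The deposited values of the 12 arrays are on the log2 scale, one per probe set, made with RMA in the affy package per the submitters' processing notes. RMA corrects background, equalises distributions between arrays and summarises probes, so a shift common to most transcripts is lost. Not given in the sources used here: versions, array model, probe set definition and genome build. Array medians were 7.30 to 7.38. The table held 41179 probe sets, 64 of them controls and 41115 for transcripts. None of the transcript identifiers matched the RefSeq gene table (0 matches), so gene lists and markers were not evaluated and no sequence is shown.

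One mean per group was fitted to all 12 arrays with limma 3.58.1 (lmFit and eBayes, R 4.3.3), with Benjamini-Hochberg adjustment over 16809 distinct rows. Rows were kept if they exceeded the 40th percentile of the array on 3 or more arrays, and the threshold was an adjusted p of 0.05. The procedure was tested on simulated data. Labels describe biological replicates from pools of mice. The members and lists were chosen with earlier results of these data known. Identifiers were named by rule, the 2 with the largest interaction and the 2 with the highest and the 2 with the lowest average difference between cell types among those called, because no names were at hand. Others are named only as transcripts that met the level limit in a single cell type. Replicate numbers are shared between groups, but the labels tie no number to a shared pool. Alternatives covered the filter, identical rows, normalization, a replicate block, array weights, a control covariate, the limits of the rule and leaving out single arrays. The number of arrays limits the precision. Figures were drawn with matplotlib 3.10.9.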

Additional observations from a re-analysis of the deposited data

Results flagged for a closer look

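The interaction of cell type and stimulation was past an adjusted p of 0.05 by limma in 28 of the 33 transcripts, beside 1.82% of rows tested. This contrast tests the difference between the stimulation changes of cumulus and mural cells. With the control covariate the interaction was past that threshold in 3, beside 0.149% of rows tested. The rule selected on that difference, so this is no independent support.

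Controls for bacterial dap, lys, phe and thr transcripts lie outside the main measurement. In cumulus cells all 24 probe sets read higher after stimulation, with a median log2 difference of 0.92, and in mural cells all 24 did too, with a median of 0.15. Their part in the shifts of the 33 was not tested beyond the covariate fit given above.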

How the results depend on the processing

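The number of transcripts found by the rule was 110 with a change limit of 0.3 and 15 with 0.5. It was 28 after renewed quantile normalization, 32 after median centring, 31 after cyclic loess, 35 at a level limit of 7 and 24 at 9. Leaving out one array in turn gave 30 to 71, with 71 without unprimed mural replicate 3 and 56 without stimulated mural replicate 3. The calls on the average difference between cell types were 15 to 16 higher and 11 to 12 lower without single arrays. The shares of all rows tested were then 24.6% to 28.2% higher and 18.5% to 21.2% lower. With the control covariate they were 7 and 6, beside 6.73% and 8.78% of all rows tested, and ENSMUST00000079391, at -1.11, no longer passed the threshold. The other settings (no filter, identical rows included, each normalization and array weights, whose fit did not converge) gave 16 to 17 higher and 11 lower. In these settings the shares of all rows varied more, from 19.9% to 32.7% higher and from 15% to 25.8% lower. The distance of the 33 from all rows thus differed by setting.

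With a replicate block the counts were 16 and 11, beside 26.9% and 20.5% of all rows tested. With the block within each stage, an alternative added after seeing the data, they were also 16 and 11, beside 28.3% and 21.9%. The correlations of deviations between same-numbered cumulus and mural arrays were 0.082, 0.312 and 0.412 in unprimed and 0.202, 0.147 and -0.129 in stimulated mice, so the numbers were not taken as pairs. The count of a rise with a fall under the covariate, 29, and the calls on each stimulation contrast in that fit were likewise added after seeing the data.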
